A study of Mus musculus with 10 samples.

Results

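Here 4 of the 10 protein binding microarrays of the series are compared: 2 arrays on which CREB1(A297V) was bound to unmethylated DNA and 2 on which wild-type CREB1 was. They were chosen by their titles, and no measured value entered the choice. A protein binding microarray displays many double-stranded DNA probes, to which a tagged protein binds and is then read out by fluorescence, here in Cy5. Both proteins were mouse DNA-binding domains of the bZIP class with GST at the N-terminus. Each was made by cell-free transcription and translation from a plasmid, and the CREB1(A297V) plasmid was obtained from the CREB1 plasmid by site-directed mutagenesis. The protein is thus an isolated domain without the rest of CREB1, and the amount of active protein on each array was not analysed here. The labels do not say that replicate arrays came from separate protein preparations, so p-values reflect the scatter among arrays, possibly only of technical origin. The other groups, of 2 arrays each, were CEBPB(V285A) on unmethylated DNA and both mutants on DNA that M.SssI had methylated at CG dinucleotides. They entered the tests only through the estimate of the spread, and the methylated CREB1(A297V) arrays are also described.

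bZIP proteins bind DNA as dimers, and the basic region of each monomer lies in the major groove and reads its half-site in a short, roughly palindromic site. CREB1 is the cAMP-responsive activator of the family, and its classical site is the cAMP response element (CRE), TGACGTCA. PAR proteins such as DBP, TEF and HLF prefer TTACGTAA, and C/EBP proteins prefer TTGCGCAA. These sites share the central CG and differ in the half-site, which is TGAC in the CRE, TTAC in the PAR site and TTGC in the C/EBP site. CREB1(A297V) carries valine in place of alanine at the residue that its name gives. The series also holds the opposite exchange, valine to alanine, in CEBPB.

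On each array there were 40330 probes, and the variable region of a probe spans 35 bases. The 6 probes shown carry the sites on which the comparison turns. The first 4 were the probes closest to the median of all probes with that site, and the last 2 ranked highest for CREB1, in a tie with other saturated spots, and for CREB1(A297V). Capitals mark the site, in either orientation.
CRE palindrome: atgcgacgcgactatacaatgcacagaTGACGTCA
PAR palindrome: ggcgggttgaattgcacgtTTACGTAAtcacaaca
CRE half-site before GG: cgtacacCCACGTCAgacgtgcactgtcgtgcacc
PAR half-site without CG: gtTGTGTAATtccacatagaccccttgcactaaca
Highest rank for CREB1: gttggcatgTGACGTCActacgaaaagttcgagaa
Highest rank for CREB1(A297V): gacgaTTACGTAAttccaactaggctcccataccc

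The raw spot signals of these probes already differed in opposite directions. The probe with the CRE palindrome gave 31058.5 and 45829 on the CREB1 arrays and 5362 and 7238 on the CREB1(A297V) arrays. For the probe with the CRE half-site before GG, read on the other strand as TGACGTGG, the signals were 8780.5 and 12921 for CREB1 against 1553 and 2277 for CREB1(A297V). CREB1 was thus brighter at both CRE probes on every array. At the PAR palindrome probe the order turned, with 7969 and 9581 for CREB1 and 12566.5 and 12732 for CREB1(A297V). It turned as well at the probe with ATTACACA, which holds the PAR half-site but no CG, with 1542.5 and 2576.5 against 3783.5 and 6073. The top-ranked probe for CREB1 read 65528, the top of the scale, on both CREB1 arrays, as 2 and 7 spots in all did there, and gave 36781.5 and 52078.5 for CREB1(A297V). The top-ranked probe for CREB1(A297V) read 44626 and 65528 there, and 19687 and 27073 for CREB1.

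Over all probes the median signal was 1235 and 1516.5 on the CREB1 arrays and 1470.5 and 1857 on the CREB1(A297V) arrays. Median signal over local background was 5.10 and 3.54 on the former and 2.76 and 1.79 on the latter. The range was also narrower for CREB1(A297V): on the log2 scale its highest 8-mer exceeded the median 8-mer by 2.79 and 2.68 units, and that of CREB1 did by 4.94 and 4.73. The part of this narrower range in the differences below was not tested. Signals were summarised per 8-mer as a Z-score: the median log2 signal of all probes holding the 8-mer, relative to the median of all 8-mers of that array, in units of the array's robust standard deviation. All 32896 8-mers were scored, each on 15 to 42 probes (median 34). Across 8-mers, which overlap and are no independent replicates, the 2 CREB1 arrays correlated at r = 0.935 and the 2 CREB1(A297V) arrays at r = 0.872. Pairs of 1 array of each protein gave 0.597 to 0.746.

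Over all 8-mers, 2674 (8.13%) were higher and 3552 (10.8%) lower for CREB1(A297V) than for CREB1 (limma across all 10 arrays, Benjamini-Hochberg adjusted p below 0.05, two-sided). These shares are the background for every count of calls below. Regardless of the test, 8397 of the 32896 8-mers had both CREB1(A297V) arrays below both CREB1 arrays, and 8814 had both above. A lack of overlap between the groups was thus common, and it is given below only as a description. Of all calls 42.9% were higher, a share that was 29.4% with log2 scores that were only centred and 32.6% with the authors' deposited Z-scores. Without the second CREB1 array 2564 8-mers were called. The 5 largest called losses were at 8-mers with the CRE half-site and a CG, and 4 of the 5 largest called gains were at 8-mers with the PAR half-site and no CG.

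**Figure D1:**
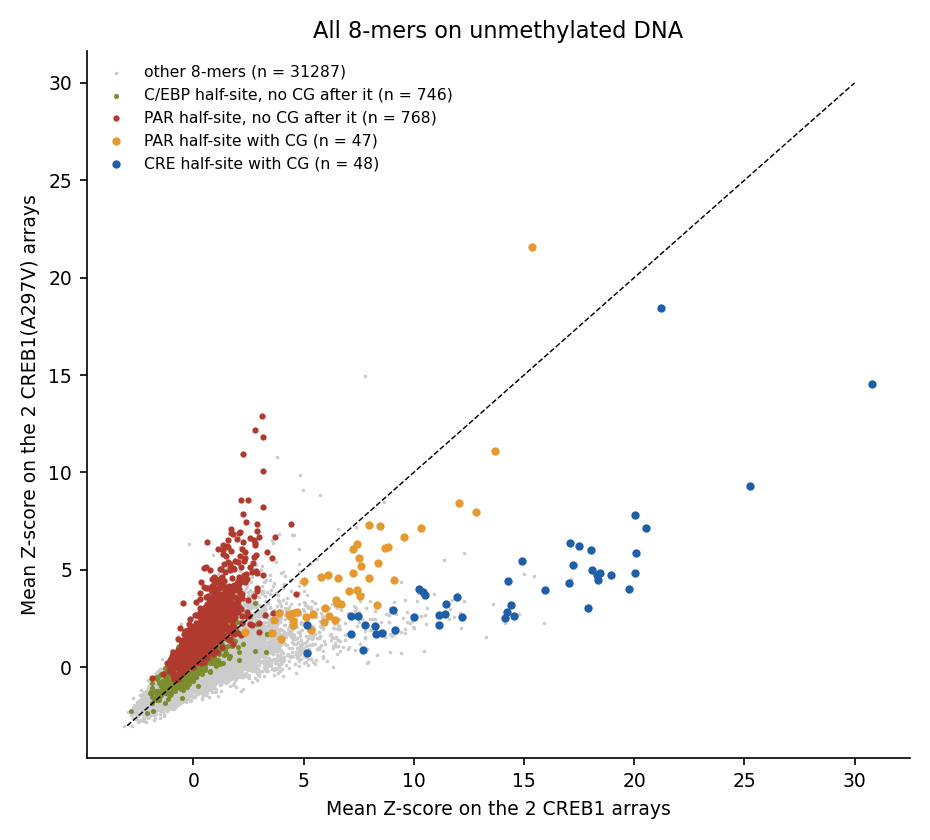
Mean Z-score of every 8-mer on the 2 CREB1 arrays (horizontal) against the 2 CREB1(A297V) arrays (vertical), 1 point per 8-mer, with the line of equal score. Of the 48 8-mers with the CRE half-site and CG, 47 had both CREB1(A297V) arrays below both CREB1 arrays, whereas 670 of the 768 with the PAR half-site and no CG after it had both above. Over all 32896 8-mers, 8397 had both below and 8814 had both above.

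The CRE palindrome TGACGTCA was the highest 8-mer for CREB1, with Z-scores of 29.09 and 32.52. On the CREB1(A297V) arrays it scored 12.70 and 16.36, at ranks 3 and 4. Its probes showed the same: the 19 probes with TGACGTCA had a median signal 31.0 and 24.3 times the array median on the CREB1 arrays, and 3.94 and 3.60 times on the others. The groups did not overlap, and the difference of -16.28 ± 11.1 was not called (SE; limma, adjusted p = 0.331). That p-value rests on a variance trend that few 8-mers inform at such high scores. The SD expected from the trend was 12.9 there, against a residual SD of 1.6. From the residual SD of the 8-mer alone the adjusted p was 0.0327, and without the trend it was 7.94e-06.

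Outside the palindrome the CRE half-site scored far lower for CREB1(A297V) than for CREB1. In the series TGACGTNN, where the last bases run through all 16 combinations, 14 of 16 members were lower for CREB1(A297V) and 0 higher; TGACGTCA and TGACGTAA were not called. CREB1 bound all 16 at a mean Z of 3 or more, from 7.68 at TGACGTTC to 30.8, and CREB1(A297V) bound 10 of them. TGACGTGG scored 16.27 and 19.54 for CREB1 and 1.86 and 4.21 for CREB1(A297V). Its difference of -14.87 ± 1.70 exceeded the spread between arrays (SE; limma, adjusted p = 2.17e-05), although it was not called on the authors' scores or on rank percentiles. At TGACGTTT the scores were 8.86 and 11.63 against 2.79 and 5.22, and at TGACGTGA 7.23 and 9.92 against 0.85 and 2.68. Both were called lower, but not on rank percentiles, nor TGACGTTT with its own residual variance. TGACGTTC, the weakest of the series for both proteins, had 6.64 and 8.72 against 0.47 and 1.30, where the median 8-mer has a score of 0. On the CREB1(A297V) arrays it stood at ranks 10438 and 4260.

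Bases on the other side of the half-site gave the same direction. All 16 members of the series NNTGACGT were lower for CREB1(A297V), and CREB1(A297V) bound 8 of them at a mean Z of 3 or more, against 16 for CREB1. Both proteins bound GATGACGT best of this series, at 18.59 and 22.50 for CREB1 and 4.84 and 9.43 for CREB1(A297V). Its call ended on rank percentiles, on the authors' scores, with its own residual variance and with the 4 arrays alone (limma, adjusted p = 0.261). AGTGACGT, GGTGACGT and TATGACGT were not called from the 4 arrays alone either. CTTGACGT was weakest for CREB1, at 5.00 and 5.32 against 1.59 and 2.80, and CCTGACGT for CREB1(A297V), at 6.07 and 8.20 against 1.34 and 2.05. GTGACGTA, the second strongest 8-mer of CREB1, fell from 23.59 and 26.91 to 7.05 and 11.59, a difference of -15.93 ± 4.58 (SE; limma, adjusted p = 0.0204). It belongs to the few 8-mers at the upper end of the variance trend, where its residual SD alone gave an adjusted p of 0.0379 and no trend 3.64e-05. Leaving out CREB1 replicate 2, or one or the other methylated CEBPB(V285A) array, ended this call, and over all 10 such fits the difference ran from -18.2 to -13.7. It also ended on rank percentiles, on the authors' scores, with at least 30 probes per 8-mer and with the 4 arrays alone (adjusted p = 0.582). CGTGACGT (18.01 and 21.49 against 2.26 and 5.75), GTGACGTC (17.56 and 22.53 against 3.02 and 6.67) and TGTGACGT (18.02 and 22.19 against 3.99 and 7.71) completed the 5 lowest called differences. None of these 3 was called on the authors' scores or on rank percentiles, and GTGACGTC and TGTGACGT were not called from the 4 arrays alone, nor GTGACGTC with its own residual variance. All 5 hold the CRE half-site followed by GT.

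By list, 46 of 48 8-mers with TGACGT were lower and 0 higher, with a median difference of -9.71, against 0.02 over all 8-mers. With the authors' scores 27 of the 48 were lower and 0 higher. On rank percentiles 4 were lower and 0 higher, with a median difference of -1.40. The list with another base than T after TGACG had 140 of 144 members lower and 0 higher, and a median difference of -3.92. On rank percentiles 75 of the 144 were lower and 0 higher. Without the CG, where TGAC is followed by A, C or T, 281 of 768 were lower and 7 higher, with a median of -0.66. The loss was thus smaller where CREB1 itself scored less: the median scores of this last list were 0.70 and 1.15 for CREB1 and 0.06 and 0.32 for CREB1(A297V). TGACATCA, a CRE with the central CG replaced, scored 7.62 and 10.71 against 3.47 and 5.58 (difference -4.64 ± 1.43, SE; limma, adjusted p = 0.0286), a call that ended when CREB1 replicate 2, CREB1(A297V) replicate 1 or methylated CEBPB(V285A) replicate 1 was left out, with values from -6.19 to -3.10. It ended as well with signal over background, quantile normalization, rank percentiles, the authors' scores, its own residual variance and the 4 arrays alone. TGACACAA was low for both proteins, at 2.01 and 1.64 against 1.39 and 1.77, and was not called.

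The PAR palindrome TTACGTAA became the highest 8-mer for CREB1(A297V), with Z-scores of 19.11 and 24.02. For CREB1 it scored 14.78 and 15.94, at ranks 20 and 28. The arrays did not overlap, but the difference of 6.21 ± 12.1 was not called (SE; limma, adjusted p = 0.763; 0.156 from its residual SD and 0.0113 without the trend). The order of both palindromes within an array is unaffected by its scaling. On the log2 scale TGACGTCA minus TTACGTAA was 2.43 and 2.41 units on the CREB1 arrays, and -0.94 and -0.86 units on the CREB1(A297V) arrays. With 2 arrays against 2 the exact permutation test (two-sided) cannot go below p = 0.333, which it gave here. The chimera of both half-sites, TGACGTAA, kept high scores with both proteins, at 19.35 and 23.09 for CREB1 and 15.57 and 21.35 for CREB1(A297V). The groups overlapped, and the chimera had rank 3 on both CREB1 arrays and rank 2 on both CREB1(A297V) arrays.

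Other 8-mers with TTAC followed by GT did not share that direction. In the series TTACGTNN 7 of 16 members were lower for CREB1(A297V), 0 higher and 9 not called, and a mean Z of 3 or more was reached by 15 members with CREB1 and by 9 with CREB1(A297V). TTACGTCT, its weakest member for CREB1(A297V), scored 3.34 and 4.63 against 1.19 and 1.75. TTACGTCC, the weakest for CREB1, scored 2.02 and 2.66 against 1.55 and 2.07 and was not called. Over all 48 8-mers with TTACGT, 23 were lower and 0 higher, with a median difference of -2.54, and with the authors' scores 13 were lower. With quantile normalization 15 were lower and 4 higher, with a median difference of -0.805. On rank percentiles 1 was lower and 0 higher. On the Z-scores used for the test, the palindrome stood apart from the series TTACGTNN in direction. It was the only member whose CREB1(A297V) arrays both lay above both CREB1 arrays. With another base than T after TTACG, 6 of 144 were lower and 2 higher, shares below the background. This depended on the scaling. With quantile normalization 29 of the 144 were higher and 8 lower, against 3271 and 3542 of all 8-mers. On rank percentiles 15 were higher and 6 lower, against 2459 and 2554 of all. The sign of the median difference, 0.13, turned with normexp correction, centred log2 scores and the authors' scores.

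**Figure D2:**
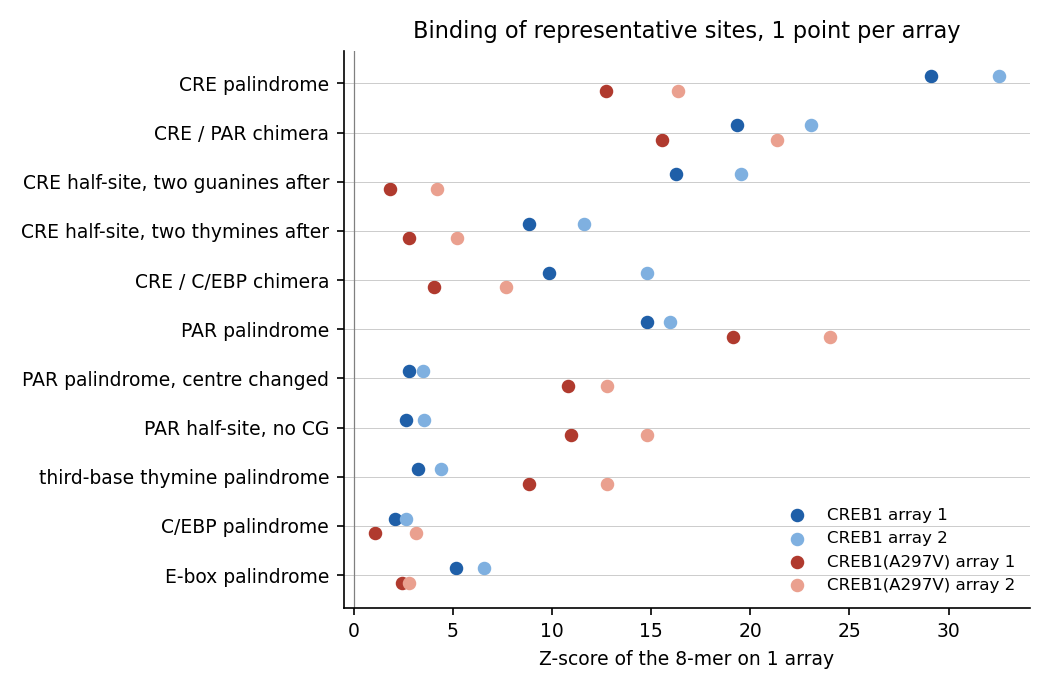
Z-scores of 11 representative 8-mers, 1 point per array, for CREB1 (blue) and CREB1(A297V) (red). The CRE half-site before GG (TGACGTGG) fell from 16.27 and 19.54 to 1.86 and 4.21, and the PAR half-site without CG (ATTACACA) rose from 2.64 and 3.56 to 10.97 and 14.80.

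The largest called gains were mostly at the PAR half-site without CG. ATTACACA showed the largest called gain, from 2.64 and 3.56 for CREB1 to 10.97 and 14.80 for CREB1(A297V), and moved from ranks 939 and 802 to rank 5 on both arrays. The difference was 9.79 ± 1.53 (SE; limma, adjusted p = 0.000241). The 35 probes that hold it had a median of 1.39 and 1.41 times the array median for CREB1 and 3.25 and 3.18 times for CREB1(A297V). None of the 35 was among the brightest 1% of probes on either CREB1 array (0 of 35), and 19 and 15 were on the CREB1(A297V) arrays. TTACCTAA, the PAR palindrome with one central base changed, scored 2.60 and 2.95 against 9.80 and 14.56. TTACACAT scored 1.95 and 2.57 against 9.18 and 12.72. For TTACATAA, whose centre is CA in place of CG, the values were 2.81 and 3.50 against 10.80 and 12.79 (difference 8.64 ± 2.36, SE; limma, adjusted p = 0.0155). Leaving out CREB1 replicate 1 or replicate 2 ended that last call, and the difference ran from 7.65 to 9.64 over the 10 fits that each lack 1 array. On the authors' scores these 4 8-mers kept the direction and none of the 4 calls. Rank percentiles ended the calls of ATTACACA, TTACCTAA and TTACATAA, and its own residual variance that of TTACCTAA.

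Over the list, 520 of 768 8-mers with TTAC followed by A, C or T were higher for CREB1(A297V) and 0 were lower, and the median difference was 1.34. On both CREB1(A297V) arrays the score lay above both CREB1 arrays for 670 of the 768, against 8814 of all 32896 8-mers. The list median was 0.75 and 0.66 for CREB1 and 1.74 and 2.34 for CREB1(A297V). At a Z of 3 or more stood 12 and 22 members on the CREB1 arrays, and 156 and 286 on the CREB1(A297V) arrays. The median difference stayed positive under each of the 8 other scores tried, and the number higher was smallest, 242 with 0 lower, with the authors' scores. After TTAC, an A gave the most gains, 202 of 256 with a median difference of 1.89. A T gave 172 of 256 with a median of 1.24, and a C gave 146 of 256 with a median of 0.97. TTACACAA holds the PAR half-site followed by ACAA, which differs by 1 base from GCAA, the C/EBP half-site on the other strand. It scored 1.37 and 1.59 against 4.04 and 7.38, a difference of 4.23 ± 0.939 (SE; limma, adjusted p = 0.00402). The call ended on the authors' scores and with its own residual variance.

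**Figure D3:**
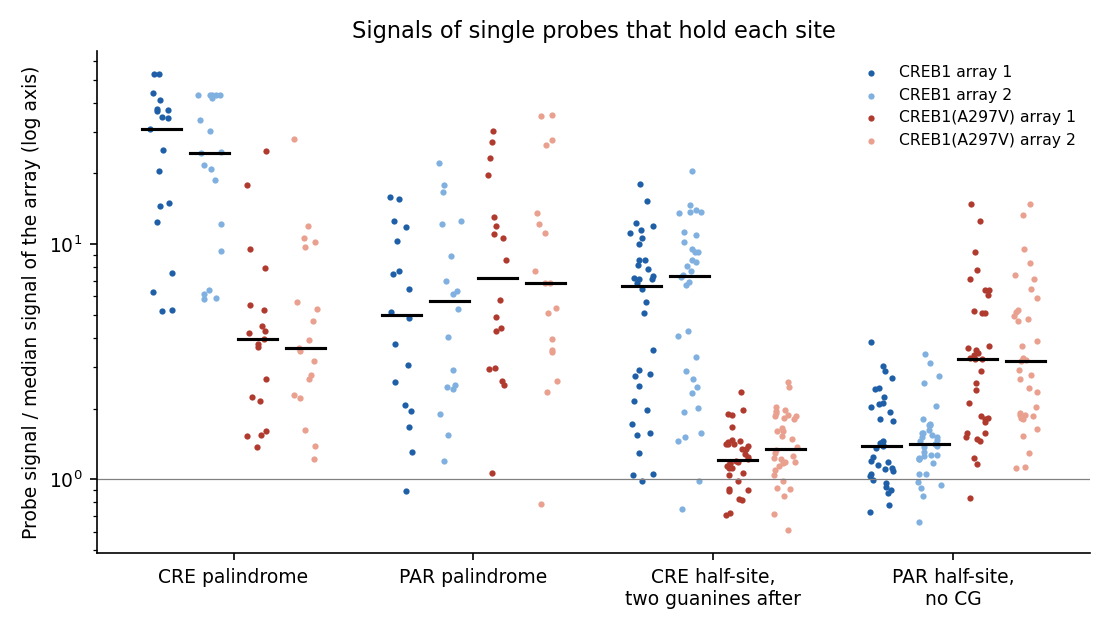
Signal of every probe that holds each of 4 sites, divided by the median signal of its array (log axis), with a bar at the median of the 19, 18, 34 and 35 probes. Medians for the CRE palindrome were 31.0 and 24.3 with CREB1 and 3.94 and 3.60 with CREB1(A297V), and those for the PAR half-site without CG were 1.39 and 1.41, then 3.25 and 3.18.

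Single probes showed the change in preference without any 8-mer summary. Among the 100 brightest probes of each array, 86 and 82 held TGACGT on the CREB1 arrays and 19 on either CREB1(A297V) array, while 1.42% of all probes hold it. TTAC followed by A, C or T was present in 8 and 6 of the 100 for CREB1 and in 42 and 43 for CREB1(A297V), against 16.9% of all probes. All 19 probes with TGACGTCA belonged to the brightest 1% on both CREB1 arrays, and 12 and 11 did on the CREB1(A297V) arrays. For the 18 probes with TTACGTAA the numbers were 9 and 9 for CREB1 and 15 and 15 for CREB1(A297V). Of the 34 probes with TGACGTGG 20 were in the brightest 1% on each CREB1 array and 0 on each CREB1(A297V) array. Among the 100 brightest, TTACGT was in 18 and 16 for CREB1 and in 25 and 24 for CREB1(A297V), against 1.42% of all probes. CREB1 thus placed nearly all of its brightest probes at CRE half-sites. CREB1(A297V) spread them over PAR sites with and without CG and over CRE half-sites, the latter still above their share of all probes.

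A mean Z of 3 or more set apart 3 groups of 8-mers: 696 reached it for CREB1 and not for CREB1(A297V), 364 for CREB1(A297V) and not for CREB1, and 188 for both. A CG was present in 82.0% of the 696, 12.9% of the 364 and 76.1% of the 188, against 38.1% of all 8-mers. TGAC occurred in 280 of the 696 and in 2 of the 364. TTAC occurred in 34 of the 696, close to its share of all 8-mers, and in 294 of the 364. Of all 8-mers 3.89% hold TGAC and 3.89% hold TTAC. These 3 groups were formed from the same scores and are given as a description. Among the 100 highest 8-mers of CREB1, 99 held a CG and 89 held TGAC. Among those of CREB1(A297V), 42 held a CG, 15 held TGAC and 82 held TTAC, with 50 of them having A, C or T after it. TTAC followed by A, C or T is in 2.33% of all 8-mers. By number of CG dinucleotides, 2319 of 20349 8-mers without CG were higher and 862 lower. With 1 CG these were 342 and 2016 of 10762, with 2 CG 13 and 632 of 1702, and with 3 or more 0 and 42 of 83. As scores are set against the median of all 8-mers, these counts measure the gap between the classes and not the rise of any.

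A palindrome of another half-site, with thymine at the third base, also gained. TGTCGACA, the palindrome of TGTC around CG, scored 3.24 and 4.40 for CREB1 and 8.87 and 12.77 for CREB1(A297V), a difference of 7.00 ± 1.16 (SE; limma, adjusted p = 0.000403). The call ended on rank percentiles, on the authors' scores and with its own residual variance (adjusted p = 0.0776). Ranks moved from 587 and 528 to 11 and 9. TTACGACA, which joins the TTAC and the TGTC half-site around CG, scored 6.98 and 8.60 against 12.34 and 17.54 and was the third strongest 8-mer of CREB1(A297V) by its mean of 14.9. It did not pass the test (difference 7.15 ± 2.55, SE; limma, adjusted p = 0.0566). The arrays did not overlap, which was common among all 8-mers. Joined to the CRE half-site instead, as TGACGACA, the scores overlapped at 6.95 and 7.88 against 5.47 and 7.16. The gain did not extend to the half-site as a whole: of 256 8-mers with TGTCG 4 were higher and 43 lower, and of 768 with TGTC followed by A, C or T 28 were higher and 147 lower.

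Sorted by their first 4 bases on either strand, 8-mers that start with TTAC were higher in 129 of 256 cases and lower in 9. The only other half-site of the form TNNC with gains in more than 33 of 256 was TTTC, with 74 of 256 higher (28.9%) and 7 lower. TTTCGAAA, its palindrome, chosen here after its values were seen, scored 0.90 and 0.21 for CREB1 and 2.80 and 3.29 for CREB1(A297V), and was called higher (difference 2.49 ± 0.408, SE; limma, adjusted p = 0.000377). The most losses were at TGAC, with 132 of 256 lower and 2 higher, followed by TCAC with 67 of 256 lower and 2 higher. Followed by G, these became 59 of 64 and 45 of 64 lower, with 0 higher in either. The E-box CACGTG, the site of bHLH proteins such as MYC and USF, consists of TCAC half-sites when flanked by T and A. All 26 8-mers with CACGTG were lower and 0 higher, with list medians of 3.00 and 3.96 for CREB1 and 0.51 and 1.08 for CREB1(A297V). TCACGTGA fell from 5.19 and 6.58 to 2.45 and 2.81 (difference -3.26 ± 0.558, SE; limma, adjusted p = 0.000554), a call that ended on rank percentiles.

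Palindromes around a central CG separated the proteins further. Of all 64 palindromes NNNCGNNN, 12 reached a mean Z of 3 for CREB1 and 4 did for CREB1(A297V), while 3 were called higher, 21 lower and 40 not called. CTACGTAG differs from the PAR palindrome only in its outer bases, and was chosen here after its values were seen. It scored 9.94 and 10.97 for CREB1 and 0.90 and 0.80 for CREB1(A297V), a difference of -9.60 ± 0.975 (SE; limma, adjusted p = 1.31e-05). CREB1(A297V) thus scored TTACGTAA at 19.11 and 24.02 and CTACGTAG far lower, at ranks 6415 and 7521. CCCCGGGG was the lowest palindrome for both proteins, at -2.45 and -2.11 for CREB1 and -2.67 and -2.52 for CREB1(A297V), and was not called.

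C/EBP sites scored low with both proteins. TTGCGCAA scored 2.09 and 2.62 for CREB1 and 1.08 and 3.16 for CREB1(A297V), with overlapping arrays. TTGCACAA lay below the median 8-mer for CREB1, at -0.46 and -0.45, and near it for CREB1(A297V), at 0.03 and -0.19. TTGCATAA scored 1.44 and 1.72 against 2.27 and 3.38, and TTGCGACA 1.42 and 1.84 against 1.33 and 2.44. None of these 4 was called. Of 48 8-mers with TTGCGC 0 were higher and 2 lower. Of 746 with TTGC followed by A, C or T 77 were higher and 18 lower, near the background for gains and below it for losses. Sites that join the C/EBP half-site to a PAR or a CRE half-site scored higher. TTACGCAA scored 5.05 and 6.42 for CREB1 and 7.33 and 10.36 for CREB1(A297V), and TGACGCAA 9.83 and 14.77 against 4.05 and 7.67. Neither passed the test (limma, adjusted p = 0.438 and 0.0596). The arrays of either did not overlap, which was common among all 8-mers.

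Other sites served as comparison. AP-1 sites, bound by FOS and JUN proteins, hold the CRE half-site without a full CRE: of 8 8-mers with TGACTCA 3 were lower and 0 higher, with list medians of 1.35 and 2.64 for CREB1 and 0.62 and 1.64 for CREB1(A297V). The ETS core CCGGAA, which bZIP proteins are not known to bind, had 5 of 48 members higher (10.4%) and 0 lower. Over all 8-mers 8.13% were higher and 10.8% lower. The core holds a CG, and of 8-mers with 1 CG 3.18% were higher and 18.7% lower. Its medians were negative on all 4 arrays, at -0.72 and -0.67 for CREB1 and -0.40 for each CREB1(A297V) array. Of the 21 8-mers fixed as a panel, 3 were higher, 6 lower and 12 not called.

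Single-base changes of both palindromes were compared at each position of the half-site. Positions are counted from 1 at the outer base of the left half-site, and a change in the left half-site equals the matching change in the right. From TGACGTCA, G2T turned the site into the chimera with TTAC and was the only change that raised the signal for CREB1(A297V), by 0.42 and 0.56 log2 units. For CREB1 the same change gave -1.65 and -1.37. In the other direction, T2G in TTACGTAA raised the CREB1 signal by 0.78 and 1.04 and changed that of CREB1(A297V) by -0.52 and -0.30. In these palindromes the order of thymine and guanine at the second base was thus opposite for the proteins on every array. It was not opposite in all contexts: where both bases at the end of the 8-mer are G, CREB1(A297V) scored 1.86 and 4.21 with guanine (TGACGTGG) and 0.99 and 2.88 with thymine (TTACGTGG).

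**Figure D4:**
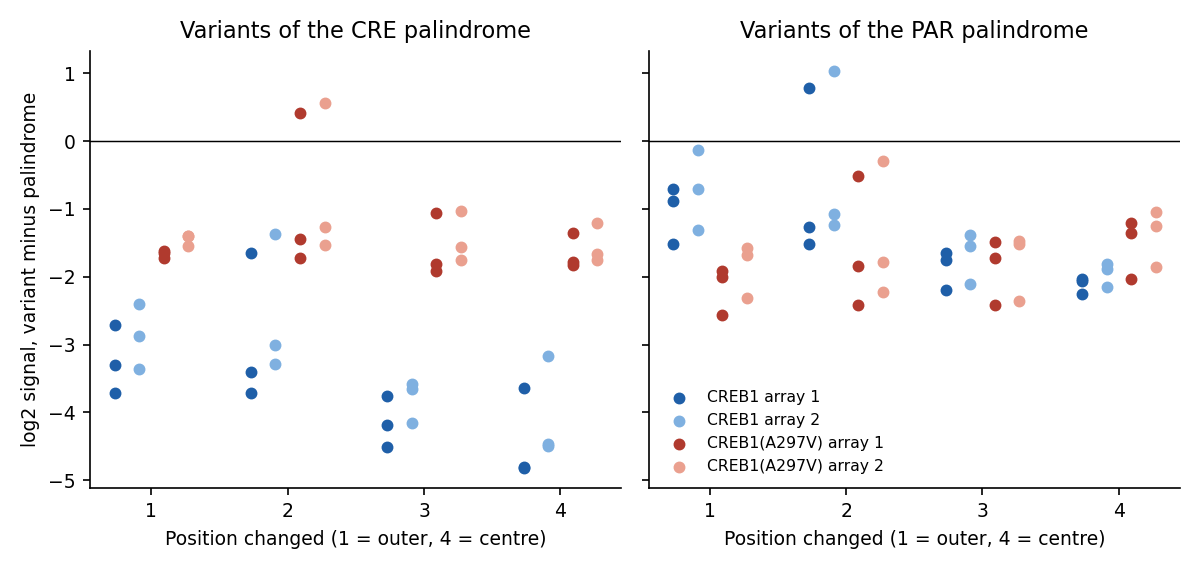
Change in log2 signal when a single base of the CRE palindrome (left) or the PAR palindrome (right) is replaced, by position, 1 point per replacement and array. At position 2 a replacement raised the signal for CREB1(A297V) in the CRE palindrome (0.42 and 0.56) and for CREB1 in the PAR palindrome (0.78 and 1.04).

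At the third base, the A3T change in TGACGTCA changed the CREB1 signal by -3.76 and -3.58 log2 units and the CREB1(A297V) signal by -1.06 and -1.03. The other replacements of this base cost CREB1(A297V) more, with means of -1.84 for A3C and -1.68 for A3G. In TTACGTAA the A3T change gave means of -1.66 for CREB1 and -1.48 for CREB1(A297V), a smaller gap than in the CRE. The height of the starting site bounds how far a signal can fall. TGACGTCA stood at 30.6 and 26.5 times the array median for CREB1 and 3.62 and 3.54 times for CREB1(A297V), and TTACGTAA at 5.69 and 4.98, then 6.92 and 6.40 times. At the outer base of TTACGTAA, T1A, T1C and T1G gave means of -0.80, -0.42 and -1.41 with CREB1 and of -1.84, -1.74 and -2.44 with CREB1(A297V). At the centre of the PAR palindrome the order was reversed: C4T and C4G gave -1.23 and -1.21 for CREB1(A297V), and -1.92 and -1.98 for CREB1. In Z-scores, 4 of the 12 distinct variants of TTACGTAA were higher for CREB1(A297V), 2 lower and 6 not called. From TGACGTCA 0 of 12 were higher, 8 lower and 4 not called. The weakest variant of the PAR palindrome was TTAAGTAA for CREB1 (1.53 and 1.15, against 5.11 and 7.41 for CREB1(A297V)) and GTACGTAA for CREB1(A297V) (1.58 and 3.29, against 5.90 and 6.96 for CREB1).

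The methylated arrays of CREB1(A297V) give its scores at sites without CG, which M.SssI does not modify, on another pair of arrays, although other CG of the same probes are methylated there. Median signal over background there was 5.09 and 5.03, and the probes lay at other positions on these slides. ATTACACA scored 18.01 and 18.39, TTACCTAA 18.80 and 20.77, TTACACAT 15.50 and 18.10, and TTACATAA 14.05 and 17.24. All of these lay above the scores of the same protein on unmethylated arrays and above those of CREB1. The list of TTAC followed by A, C or T had medians of 2.36 and 2.83. Among CRE sites, TGACATCA scored 8.63 and 9.36, within the range of the CREB1 arrays. The list of TGAC followed by A, C or T had medians of 0.59 on both, below those of 0.70 and 1.15 on the CREB1 arrays. No test was made between these arrays and those of CREB1, since probe state and slide layout differ as well.

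The authors' deposited Z-scores gave the same direction at the sites named next, with larger numbers where the recomputed scores were high. TTACGTAA stood at 40.6 and 51.2 against 84.3 and 65.3, and ATTACACA at 3.49 and 5.01 against 21.1 and 24.4. CTACGTAG, at 17.8 and 23.6 for CREB1, was at -0.203 and 0.0159 for CREB1(A297V). The highest deposited score was 285.038 and 241.507 on the CREB1 arrays, at TGACGTCA, and 84.28 and 65.277 on the CREB1(A297V) arrays, at TTACGTAA. Each palindrome was thus the top site of its own protein in both sets of scores.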

How the data were processed

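Spot intensities of 10 arrays were used, 2 per group as the sample titles give them. Per the file headers, the deposited tables hold the median signal intensity and median background intensity of each spot on a linear scale. A second file, deposited by the authors, gives 8-mers a Z-score per array, with a median score of 0 for each array. The steps behind it are not given in the sources used here, and it was used as an alternative and printed beside the recomputed values. The recomputed score took log2 of the median signal, lowered by the median of a window of 15 by 15 spots. An 8-mer and its reverse complement were counted as 1, and the median over its probes was taken (at least 8 probes). It was centred on the array median and divided by 1.4826 times the median absolute deviation. No background correction was applied.

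The test was limma (version 3.58.1, run in R 4.3.3) with lmFit and eBayes with a variance trend, 1 coefficient per group and 5 residual degrees of freedom. P-values were adjusted by Benjamini-Hochberg across the 32896 8-mers. Few 8-mers inform the trend at the height of TGACGTCA, TTACGTAA, TGACGTAA and GTGACGTA, whose mean Z over all arrays is above 16. The test and the scoring were tested on simulated data. The number of arrays limits the precision. Lists were described by counts and medians without a set test. The 8-mers named were a panel of 21, the 5 highest and 5 lowest called differences, the 5 highest mean scores of each protein and the strongest and weakest member of each series, with exceptions said in the text. The members and lists were chosen with earlier results of these data known. Alternatives changed the background correction, scaling, spatial window, filters, variance model and arrays, 1 at a time, except that a replicate block was also fitted with the 4 arrays alone.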

Additional observations from a re-analysis of the deposited data

How the results depend on the processing

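The number of called 8-mers, 6226 as reported, was 3797 with signal over background, 3599 with log2 scores that were centred only, 3863 with the authors' Z-scores, 3530 without spatial correction, 1392 with each 8-mer's own residual variance and 2518 when the 4 arrays were fitted alone. The number higher was then 1539, 1059, 1258, 1454, 575 and 807. The number lower was 2258, 2540, 2605, 2076, 817 and 1711. Leaving out 1 of the 10 arrays gave 2564 to 6767 calls, 993 to 2996 of them higher and 1571 to 4039 lower, each lowest without CREB1 replicate 2. Of the 6226, 2466 were called in the same direction with the authors' scores and 4230 with normexp correction.

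Single differences that reversed belonged to 8-mers that were not called. TGACGTAA was 2.24 with quantile normalization, 0.00304 on rank percentiles and between -5.64 and 0.135 with 1 array left out, the latter without CREB1(A297V) replicate 1. TGACGACA was 2.98 with quantile normalization, 0.277 on rank percentiles and 0.462 without spatial correction. TTGCGCAA was 0.621 without spatial correction, 0.133 with a window of 7 by 7, 0.069 without dim spots and between -1.28 and 0.799 with 1 array left out, above 0 without CREB1 replicate 2 (0.0236) or CREB1(A297V) replicate 1. TTGCGACA was -0.0211 with centred log2 scores and between -0.30 and 0.812 with 1 array left out, the former without CREB1(A297V) replicate 2, and TTGCACAA was -0.492 with signal over background and -0.00729 with normexp. The cause was not tested. With the replicate number as a block 6581 8-mers were called, and 5886 from the 4 arrays alone. Deviations of arrays with the same number correlated at 0.333, but 2 pairs do not show that the numbers pair the arrays.

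Signal over background was lowest, at 1.79, on the second CREB1(A297V) array, and 2 arrays per group limit every comparison.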

Other observations

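After the values had been seen, 2 further groups of 8-mers were described, and no test was made of either. The AP-1 site has a PAR counterpart, TTACTCA, in which TTAC stands in place of TGAC. All 8 8-mers with TTACTCA were higher for CREB1(A297V), with medians of 0.82 and 0.89 for CREB1 and 3.79 and 4.92 for CREB1(A297V). With the authors' scores 2 of the 8 were higher and 0 lower. On the methylated CREB1(A297V) arrays, where a site without CG is not modified, the medians were 7.82 and 8.91. The other group was TTACA with an A before it, the core of ATTACACA. Of its 48 8-mers 46 were higher and 0 lower, with medians of 1.64 and 2.03 against 4.65 and 6.83. With the authors' scores 18 of the 48 were higher and 0 lower. A Z of at least 3 was reached by 4 and 12 members on the CREB1 arrays and by 40 and 48 on the CREB1(A297V) arrays.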
